A study of Mus musculus with 2 samples.

Results

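The genes described here encode the collagens, the laminins and the integrins, the structural chains of the extracellular matrix and the receptors that hold cells to it. They were chosen by symbol, as every gene whose single annotated symbol begins like a collagen chain (Col, a number, a, a number), a laminin chain (Lama, Lamb or Lamc and a number) or a numbered integrin subunit (Itga or Itgb and a number). The rule took 72 of 17097 named genes, read by 125 of 45037 probe sets, and they comprised 42 collagens, 8 laminins and 22 integrins. By the same lists of chains, 68 of 75 known chains and subunits were measured and 7 were not analysed here. Of the 72 genes, 4 carry an integrin-like symbol without being a listed subunit (Itgb1bp1, Itgb1bp2, Itgb2l and Itgb3bp).

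Total RNA came from mouse embryonic stem (ES) cells of strain C57BL/6, grown without feeder cells on gelatin with serum and leukemia inhibitory factor. Both groups carried a lentivirus and had spent 72 hours in puromycin, which kills cells without the virus. In the group labelled TET2 KD the virus carried a short hairpin RNA against Tet2, the enzyme that starts removal of DNA methylation by oxidising the methyl group, and in the group labelled control KD a scrambled hairpin. Each group was 1 array, made from 2 µg of RNA, so no difference below has an error or a test, and 2 arrays set the limit of precision.

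Collagens are proteins of repeated glycine triplets that wind into a helix of several chains, and differ in where they go: fibrillar collagens form the cables of connective tissue, and type IV collagen the sheet of basement membranes. Laminins are cross-shaped complexes of an alpha, a beta and a gamma chain, and are the first scaffold of a basement membrane in the embryo. Integrins pair an alpha with a beta subunit across the cell membrane and link these proteins to the actin cytoskeleton. In ES cells and the early embryo, laminin and type IV collagen are laid down by the extraembryonic endoderm and lie under the epiblast.

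The labels were checked first. Tet2 read 5.62 in the control-labelled array and 5.57 in the TET2 KD-labelled array in the brighter of its probe sets, and 5.48 and 5.22 in the dimmer, or 96.2% and 83.7% of the control level. Neither was 2-fold lower, so the samples are named by their labels throughout and no direction is assigned to a loss of Tet2. The floor used here is the median of all values (2.55 on the log2 scale), and no member equals it. Among 15 ES cell markers 10 (66.7%) had a mean above the floor, close to the 65.4% of all named genes. A mean of 6 or over was reached by 7 of the 15 (46.7%), beside 24.3% of all named genes. The brightest was Zfp42, at 10.56 and 10.58. Pou5f1 and Nanog, which define pluripotent cells, were under the floor on both arrays. Some genes of neurons, myelin and blood were bright on both, the brightest being Stmn2 at 10.34 and 10.35, Mbp at 10.32 and 10.22 and Hba-a1 at 10.39 and 10.33. Others were not. A mean of 6 or over was reached by 3 of 6 neuron, 5 of 7 oligodendrocyte and 2 of 6 blood genes, beside 24.3% of all genes. Snap25 of neurons and Cd3e and Cd79a of blood were under the floor on both arrays. Whether each value stands beside the right probe set name could not be checked without scanner files, and every value of a named gene below is given under that limit.

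The 3 families lay mostly near or under the floor, and few of their members were among the bright genes. Of the 72 members, 38 (52.8%) had a mean above the floor, beside 65.4% of all named genes. The share was 54.8% of collagens, 50% of laminins and 50% of integrins. A mean of 6 or over was reached by 6 members (8.33%), beside 24.3% of all genes. These 6 were Col4a1, Col4a2, Col18a1, Lama1, Lamc1 and Itgb1, that is, chains of basement membranes and the shared beta subunit of most matrix receptors. Signals of different probe sets are not on one scale of RNA amount, so only their side of the floor and their place among all probe sets are given.

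**Figure D1:**
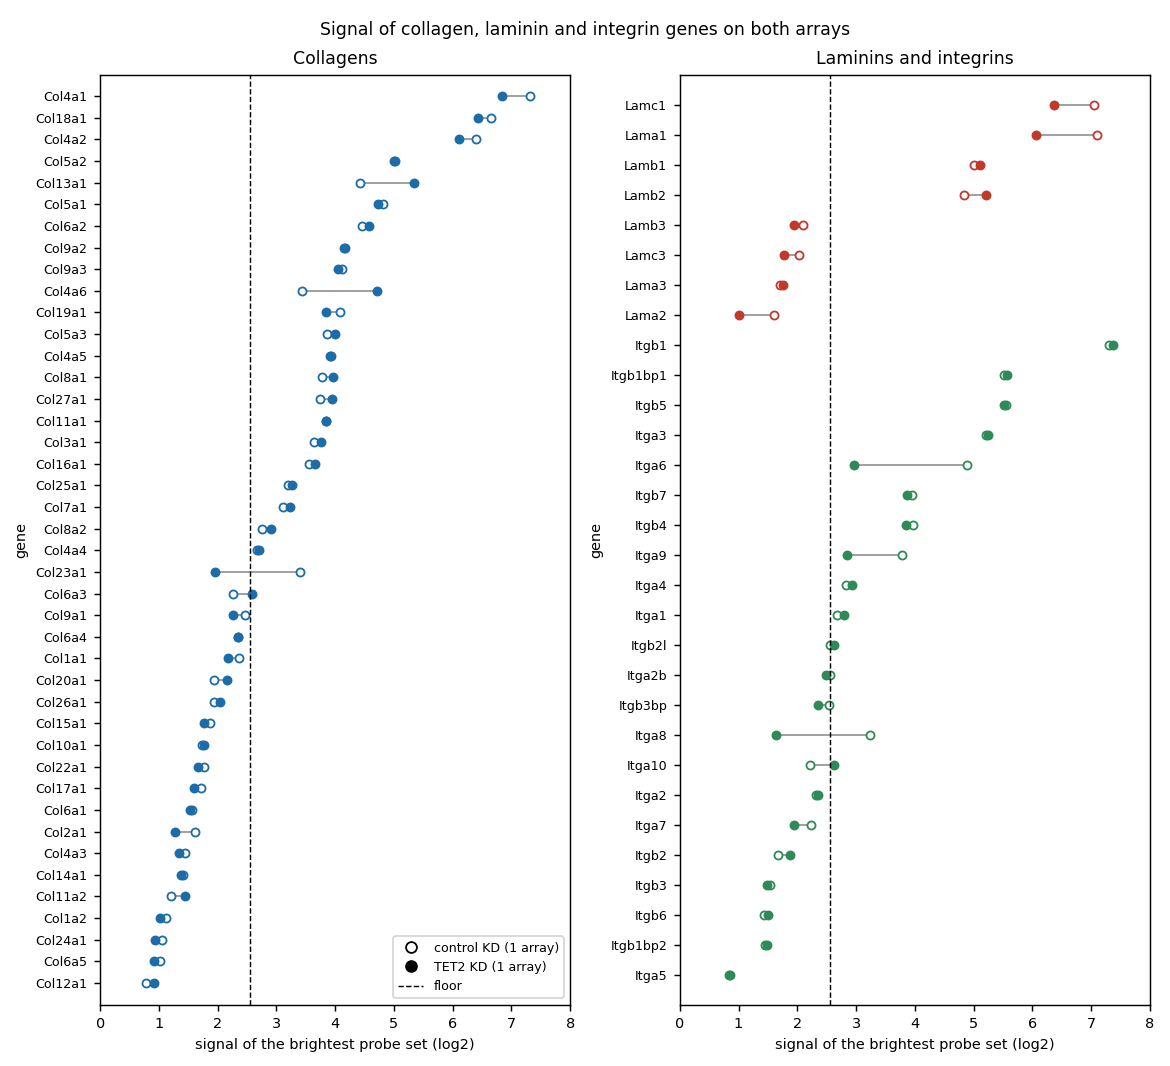
Signal (log2) of the brightest probe set of each of 42 collagen genes on the left, and of 8 laminin and 22 integrin genes on the right, with 1 open point for the array labelled control KD, 1 filled point for the array labelled TET2 KD, and the floor of 2.55 as a dashed line. Most pairs of points nearly coincide, and Itga6, Itga8, Col4a6, Col23a1, Itga9, Col13a1, Lama1 and Lamc1 have the points farthest apart.

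Most members above the floor read alike on both arrays. Of the 38, 28 (73.7%) differed by less than 0.25 on the log2 scale, beside 81.4% of all genes above the floor. Differences were below 0 in 16 of the 38 (42.1%), beside 52.1% of all genes. Col4a6 was higher by 2-fold or more in the TET2 KD-labelled array, which is 1 of 38 (2.63%) beside 1.17% of all genes. Itga6, Col23a1 and Lama1 had differences of -1 or below, which is 3 of 38 (7.89%) beside 1.41%. Col23a1 was under the floor in the TET2 KD-labelled array, so a 2-fold difference is not shown for it. With both arrays above the floor, Itga6 and Lama1 were lower by 2-fold or more, which is 2 of 37 (5.41%) beside 0.988% of all such genes. In RNA of whole cultures, fewer cells of a type and less RNA per cell cannot be told apart. At 1.5-fold, 2 members were higher and 5 (13.2%) lower, and over all genes that threshold too gave more lower (5.42%) than higher (1.78%). The median difference was 0.04 for the collagens, -0.29 for the laminins and 0.03 for the integrins, beside -0.01 for all genes, and the laminin value is the middle of 4 genes of which 2 were higher and 2 lower.

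**Figure D2:**
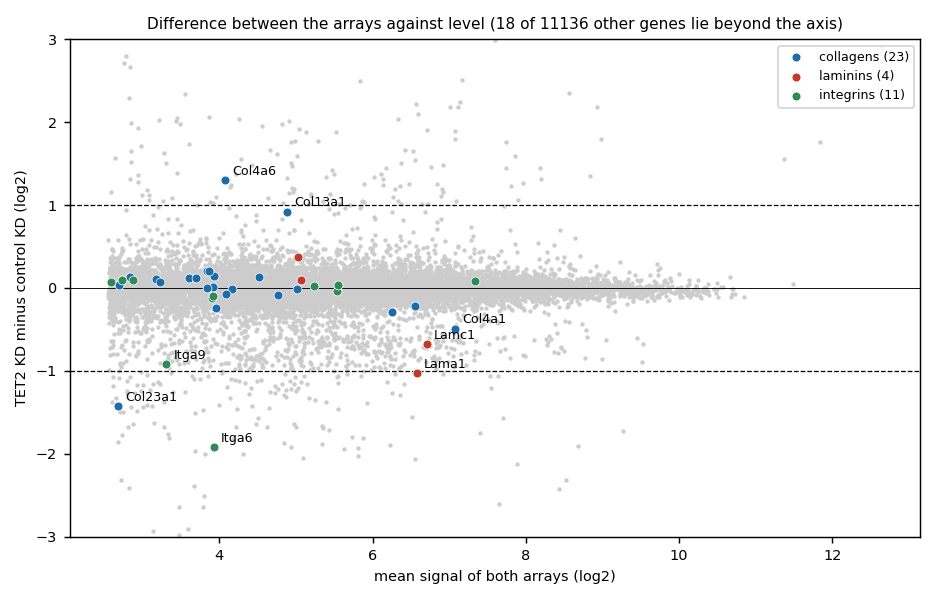
Difference between the arrays (TET2 KD minus control KD, log2) against the mean of both arrays (log2) for genes above the floor, with 1 point per gene: 23 collagens, 4 laminins and 11 integrins in colour and 11136 other genes in grey, of which 18 lie beyond the axis. Dashed lines mark 2-fold; Col4a6 lies above the upper line, and Itga6, Col23a1 and Lama1 below the lower.

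Type IV collagen, the network of basement membranes, held 2 of the 3 collagens with a mean of 6 or over and the largest positive difference. Col4a1 and Col4a2, the chains that assemble together in nearly every basement membrane, read 7.32 and 6.40 in the control-labelled array and 6.84 and 6.11 in the TET2 KD-labelled array. Both were lower there, by 1.40-fold (difference -0.49) and 1.22-fold (-0.29). A dimmer probe set of Col4a1 went the other way, at 3.17 and 3.34. In the RefSeq annotation these 2 genes are neighbours on opposite strands whose starts lie 21 bases apart.

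Col4a6, a chain of more restricted basement membranes, read 3.43 in the control-labelled array and 4.72 in the TET2 KD-labelled array. The difference of 1.30 is the 84th largest upward of 11174 genes, at 2.46-fold. Its other probe set, under the floor at 1.81 and 1.78, showed no such difference. Col4a5, its neighbour on the X chromosome and its partner in the assembled network, read 3.92 and 3.93. The chains of the glomerular network, Col4a3 and Col4a4, read 1.45 and 1.35, and 2.67 and 2.71. Of 6 type IV chains, 5 were above the floor on both arrays.

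The sequences just before the starts of Col4a6, Col13a1 and Col23a1 are shown because these genes hold the largest collagen differences in either direction, and that of Col4a5 because it starts 1343 bases from Col4a6 on the other strand and did not differ with it. They are the 250 bases upstream of the RefSeq start in build GRCm38.p6, 5′ to 3′ on the strand of the gene, with each CG dinucleotide, the site at which mammalian DNA is mostly methylated, in capitals. Col4a6 is at chrX:141474077-141474326 (minus strand), Col4a5 at chrX:141475169-141475418 (plus), Col13a1 at chr10:61979109-61979358 (minus) and Col23a1 at chr11:51289670-51289919 (plus).
Col4a6: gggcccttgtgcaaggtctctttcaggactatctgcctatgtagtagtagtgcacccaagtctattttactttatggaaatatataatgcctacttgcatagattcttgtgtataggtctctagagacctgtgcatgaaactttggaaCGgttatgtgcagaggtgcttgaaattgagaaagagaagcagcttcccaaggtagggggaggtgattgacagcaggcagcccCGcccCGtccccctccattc
Col4a5: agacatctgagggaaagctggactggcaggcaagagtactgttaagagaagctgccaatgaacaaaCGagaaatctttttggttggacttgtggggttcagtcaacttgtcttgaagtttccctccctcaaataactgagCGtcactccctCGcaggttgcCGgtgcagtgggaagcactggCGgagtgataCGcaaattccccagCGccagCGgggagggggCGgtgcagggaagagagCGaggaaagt
Col13a1: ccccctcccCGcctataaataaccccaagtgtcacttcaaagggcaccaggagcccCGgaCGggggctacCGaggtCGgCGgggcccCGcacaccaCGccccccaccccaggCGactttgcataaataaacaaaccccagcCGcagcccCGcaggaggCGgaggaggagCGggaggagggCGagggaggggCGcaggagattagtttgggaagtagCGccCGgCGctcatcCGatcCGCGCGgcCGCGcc
Col23a1: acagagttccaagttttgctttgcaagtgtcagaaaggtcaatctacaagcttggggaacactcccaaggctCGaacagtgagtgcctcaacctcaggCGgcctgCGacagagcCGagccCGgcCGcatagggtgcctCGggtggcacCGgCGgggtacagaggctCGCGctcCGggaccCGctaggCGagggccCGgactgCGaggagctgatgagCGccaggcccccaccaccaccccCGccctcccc

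Their CG content ran from 3 in Col4a6 and 10 in Col4a5 to 18 in Col23a1 and 24 in Col13a1. As many as 3 or fewer were found in 37.8% of all 32851 promoters in the table, and as many as 24 or fewer in 89.3%. Col23a1 and Col13a1, which differed in opposite directions, both met a common definition of a CpG-rich promoter (at least 50% G and C, and at least 0.6 of the CG dinucleotides that base composition alone gives), and Col4a6 and Col4a5 did not. The GC box (GGGCGG, either strand) occurred in Col4a6, Col4a5 and Col23a1 and in 32.7% of all promoters. The CCAAT box (CCAAT, either strand) occurred in Col4a5 and in 33.8%, and the TATA box (TATAAA, either strand) in Col13a1 and in 12.4%. A match is a description of these letters and says nothing of binding.

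The transmembrane collagens, which sit in the cell membrane with a shed outer part, gave the other large collagen differences. Col13a1 read 4.42 in the control-labelled array and 5.34 in the TET2 KD-labelled array, 1.89-fold apart and short of 2-fold, with 1 probe set. Col23a1 read 3.40 and 1.96, a difference of -1.43. Its second value is under the floor, so the fold is at least 1.79, and both of its dimmer probe sets differed by -0.10 and -0.01. Col25a1, which binds amyloid in the brain, read 3.19 and 3.27, and Col17a1, of the hemidesmosome, was under the floor at 1.71 and 1.59.

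Fibrillar collagens were dim, and nearly equal on both arrays in their brightest probe sets. Type I collagen, the main protein of bone and skin, was under the floor in both of its chains, with Col1a1 at 2.36 and 2.18 and Col1a2 at 1.12 and 1.02. Col3a1, of vessels and skin, read 3.64 and 3.76. The chains of type V collagen, which starts fibrils, were all above the floor, with Col5a1 at 4.81 and 4.73, Col5a2 at 5.02 and 5.0 and Col5a3 at 3.86 and 4.0. Col11a1, which starts cartilage fibrils, read 3.84 on both arrays. Of 11 fibrillar genes 6 were above the floor, and their differences ran from -0.09 to 0.21 (Col27a1). The second probe set of Col27a1, also above the floor, went the other way by -0.88, and the mean of both differed by -0.34. Col2a1, the cartilage collagen, was at 1.62 and 1.28.

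The remaining collagens showed no member past 1.5-fold. Among 9 fibril-associated collagens 4 were above the floor, with differences from -0.24 (Col19a1) to 0.12 (Col16a1). Of the chains of type IX collagen, which coats cartilage fibrils, Col9a2 read 4.16 and 4.15 and Col9a3 4.12 and 4.05, while Col9a1 was under the floor at 2.47 and 2.27. In type VI collagen, the beaded filament, Col6a2 read 4.45 and 4.58, but its partner Col6a1 1.56 and 1.53. Col6a3 crossed the floor at 2.27 and 2.58. Chains that make up one molecule were thus on different sides of the floor.

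Col18a1, the basement membrane collagen from which endostatin is cut, read 6.66 and 6.44, a difference of -0.22. Its other probe set, marked as shared between transcripts, was under the floor and differed by 0.28. Col15a1, its relative, was under the floor at 1.87 and 1.76. Col7a1, of anchoring fibrils, read 3.11 and 3.23, and the network collagens Col8a1 and Col8a2 of vessel walls and cornea differed by 0.20 and 0.13. The 10 collagens not named so far (Col10a1, Col11a2, Col12a1, Col14a1, Col20a1, Col22a1, Col24a1, Col26a1, Col6a4 and Col6a5) were under the floor on both arrays, with values from 0.78 to 2.35.

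Laminin chains formed a bright set and a set at background, with none between. Lama1, Lamb1, Lamb2 and Lamc1 had values from 4.84 to 7.10, and Lama2, Lama3, Lamb3 and Lamc3 were under the floor on both arrays, between 1.0 and 2.10. Lama1, the alpha chain of the first laminin of the embryo, read 7.10 in the control-labelled array and 6.07 in the TET2 KD-labelled array. It was 2.04-fold lower there (difference -1.03), the 151st lowest of 11174 genes, and it has only 1 probe set.

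Lamc1, the gamma chain of that same laminin and of most others, read 7.05 and 6.37, 1.6-fold lower (-0.68). Its second probe set, under the floor, read 1.97 and 2.06. Lamb1, the beta chain that joins them, did not share the difference, at 5.01 and 5.11. Its next probe set read 2.60 and 2.61. Lamb2, the beta chain of the neuromuscular junction and the kidney filter, was higher by 1.30-fold at 4.84 and 5.22. The 3 subunits of the first embryonic laminin thus differed by -1.03, 0.10 and -0.68 between these arrays.

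Lama2, the laminin chain of muscle and Schwann cells, was among the dim chains at 1.61 and 1.0, and both values are background. Lama3, Lamb3 and Lamc3, of which the first 2 belong to the laminin of the skin, read 1.71 and 1.76, 2.10 and 1.94, and 2.03 and 1.77.

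The 6 members with a mean of 6 or over, a set picked by level after the values were seen, had a median difference of -0.39, and 5 of the 6 (83.3%) were below 0, beside 51.2% of all genes that bright. Lama1 and Lamc1 were past 1.5-fold lower, beside 3.91% of all genes at that level. The exception was Itgb1, at 0.08 in its brightest probe set but -0.07 in the mean of its 5 probe sets. Col4a1, Lamc1 and Col18a1 each have a dimmer probe set with a difference above 0, so the direction of these 3 rests on the brightest probe set. The dimmer one of Col4a1 is above the floor, and those of Lamc1 and Col18a1 are under it on both arrays, where values are background.

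Among the integrin alpha subunits, the largest difference was in Itga6, which with Itgb1 or Itgb4 makes a laminin receptor and is a surface marker of many stem cells. It read 4.89 in the control-labelled array and 2.97 in the TET2 KD-labelled array, 3.80-fold lower (-1.92), and was the 35th lowest of 11174 genes. Its second probe set, above the floor on both arrays, read 3.73 and 3.78. The probe sets therefore gave opposite signs, and their mean differed by -0.94, short of 2-fold. Itga3, another laminin receptor subunit, read 5.22 and 5.25, and Itga7, that of muscle, was under the floor at 2.23 and 1.94.

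Other alpha subunits lay near the floor. Itga9, a receptor of tenascin, read 3.78 and 2.85 (difference -0.92, 1.90-fold), and its 2 dimmer probe sets differed by -0.19 and -0.09. Itga8, the nephronectin receptor of the developing kidney, read 3.23 and 1.63. With a mean under the floor it is not among the genes counted past 2-fold, and against the floor it was at least 1.6-fold lower. Itga5, the fibronectin receptor subunit, was under the floor at 0.83 and 0.86. Itga4 read 2.83 and 2.93 and the collagen receptor subunit Itga1 2.68 and 2.79, while Itga2, Itga10 and the platelet subunit Itga2b each had a mean under the floor.

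Beta subunits were nearly equal on both arrays. Itgb1, the partner of most alpha subunits, read 7.30 and 7.38 in its brightest probe set. Of its 5 probe sets the other 4 were dimmer, down to 0.69 and 0.68, and they differed by -0.18 to -0.01. Itgb5, which pairs with the alpha V subunit, read 5.56 and 5.52, Itgb4 of the hemidesmosome 3.97 and 3.85, and Itgb7 of lymphocytes 3.96 and 3.87. Of 7 beta subunits 4 were above the floor, with differences from -0.12 to 0.08. Itgb2 of leukocytes, Itgb3 of platelets and Itgb6 of epithelia were under it.

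The genes with an integrin-like symbol that are no listed subunit also read alike on both arrays. Itgb1bp1, a protein that binds the tail of the beta 1 subunit, read 5.52 and 5.57, and Itgb2l, a relative of the leukocyte subunit, 2.56 and 2.63. Itgb1bp2, or melusin, of muscle and Itgb3bp, a centromere protein, were under the floor.

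Different probe sets of a member often gave different answers. Of the 72 genes, 36 have 2 or more probe sets, and in 20 of these (55.6%) some lay above the floor and others under it, beside 49.7% of all such genes. The widest range of level was in Itgb1, where the means of the probe sets spanned 6.65 on the log2 scale. Where 2 or more probe sets were above the floor, their differences shared a sign in 4 of 11 members (36.4%), beside 46.9% of 3654 genes. Those 4 were Col6a2, Col9a3, Itga3 and Lamb1.

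In the 7 members with opposed signs, the range between probe sets had a median of 0.26, beside 0.25 over the 1942 of all genes whose probe sets did not share a sign. It was 0.66 in Col4a1 and past 1 in Itga6 (1.97) and Col27a1 (1.09), where the brighter probe set of Col27a1 differed by 0.21 and the dimmer by -0.88. None of the 11 had every such probe set past 2-fold, and 9 of 3654 genes did. Over all those genes the differences of the 2 brightest probe sets correlated at r = 0.33, a description across genes that share the same 2 arrays.

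**Figure D3:**
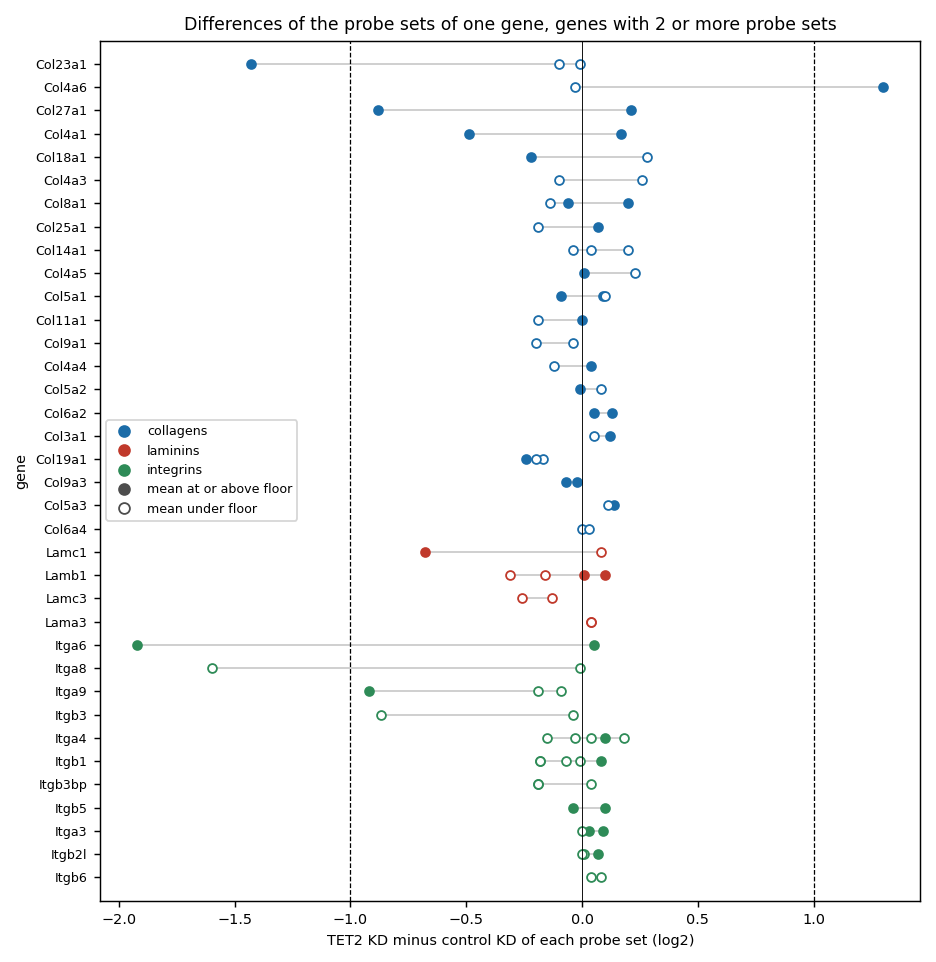
Difference (TET2 KD minus control KD, log2) of every probe set of the 36 members with 2 or more, 1 row per gene, with filled points for probe sets whose mean is above the floor and open points for those under it; dashed lines mark 2-fold. In Col23a1, Col4a6, Itga6 and Itga8 a single probe set lies past 2-fold while the others lie near 0.

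With the mean of all probe sets in place of the brightest, Lama1 was the member left past 2-fold, and with 1 probe set its value could not change. Itga6 (-0.94), Col4a6 (0.64) and Col23a1 (-0.51) were then short of it. Lamc1 differed by -0.30 and Col4a1 by -0.16, and Lamb1 turned from 0.10 to -0.09. The other probe sets of Col4a6, Col23a1 and Lamc1 were under the floor and differed by -0.10 to 0.08. Averaging such background values in was bound to shrink the difference. Those of Itga6 and Col4a1 were above the floor. The share of all genes left past 2-fold was not computed. Separately, 8 members, among them Col3a1, Col8a2 and Lamc3, are each represented by a probe set whose 2 values equal, to 9 decimals, those of a probe set of another gene. Such equal pairs make up 4.19% of all probe sets, and how they arose is not known.

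Genes that act with these families mostly read alike on both arrays. Of 132 such genes measured, 99 were above the floor, with a median difference of -0.02. None was higher by 2-fold or more, beside 1.17% of all genes, and 3 (3.03%) had differences of -1 or below, beside 1.41%. With both arrays above the floor 2 of 98 (2.04%) were lower, beside 0.988%, since Lox was under it in the TET2 KD-labelled array. These 3 belong to the list for collagen folding and processing (3 of 23). Serpinh1, the collagen chaperone of the endoplasmic reticulum, read 5.29 and 4.04 (-1.25), and its other probe set differed by -1.43.

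The other pair were lysyl oxidases, which cross-link collagen outside the cell. Lox read 3.52 and 2.34, at least 1.95-fold lower against the floor, but -0.32 in the mean of its 3 probe sets. Loxl3 read 3.77 and 2.64 (-1.13), with 1 probe set. Of 9 Plod, P3h and P4h genes, which hydroxylate collagen, 7 were above the floor, and their differences ran from -0.34 (P3h1) to 0.25 (P4ha3). The median of the whole list was -0.04.

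Matrix partners had no member past 2-fold among 19. Fn1, fibronectin, read 9.96 and 9.06 (-0.90, 1.86-fold lower), with 1 probe set. The proteins that tie laminin to type IV collagen in a basement membrane were level, with Nid1 at 3.90 and 3.83 and Hspg2 (perlecan) at 4.95 and 4.94. Sparc, another of these matrix partners, was level too, at 9.45 and 9.46. Dag1, or dystroglycan, a laminin receptor outside the integrins, read 7.63 and 7.67, and Cd44, a hyaluronan receptor, 5.07 and 4.46.

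Inside the cell, 29 of 33 genes of the integrin adhesion complex were above the floor, with a median of -0.03 and none past 2-fold. Tln1 (talin), which switches integrins on, read 4.64 and 4.56, and the kinase Ilk 6.13 and 6.10. The actin cross-linker Actn1 (-0.81) and the tensin Tns3 (-0.76) were lower and Parvb, a partner of Ilk, higher (0.82), each short of 2-fold. Matrix proteases and their inhibitors ran from -0.41 (Adamts5) to 0.44 (Adam12). Of 5 integrin alpha subunits named by letters, which the rule does not take, Itgav was above the floor at 4.17 and 4.12, and Itgal of lymphocytes read 2.70 and 1.66.

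**Figure D4:**
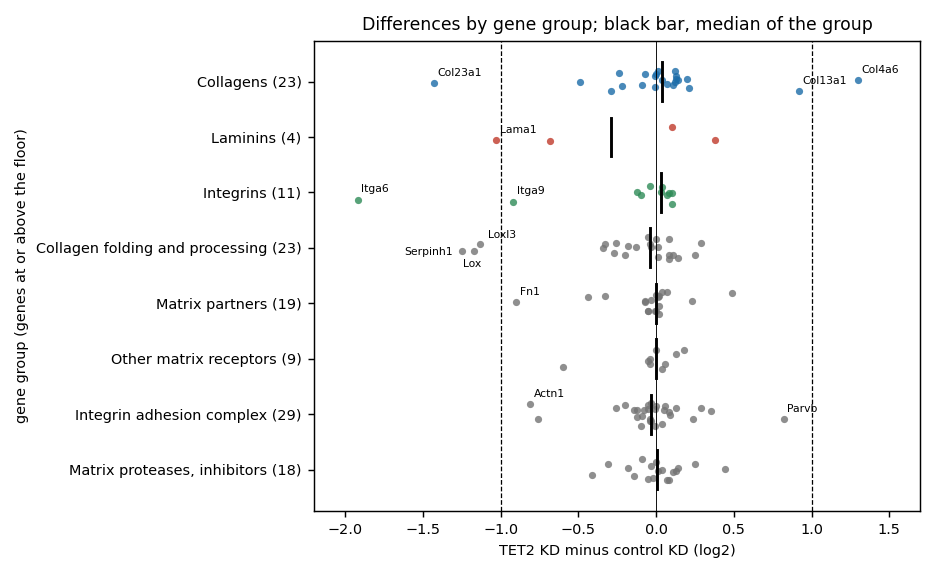
Difference (TET2 KD minus control KD, log2) of genes above the floor, 1 point per gene, for the 3 families and 5 lists of genes that act with them; the number of genes stands beside each name, the black bar is the median and dashed lines mark 2-fold. Medians lie close to 0 except that of the 4 laminins (-0.29), and Serpinh1, Lox and Loxl3 are the genes of the 5 lists with differences of -1 or below.

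Markers of some other cells differed between the arrays. Of 7 nasal and airway genes, 5 were above the floor in the control-labelled array alone, Sec14l3 read 6.95 and 3.16, and Omp was under the floor on both. Of 7 pituitary genes, Prl, Gh and Pomc were above it on both arrays and lower in the TET2 KD-labelled array (-6.53, -6.09 and -4.69). Fshb and Lhb were above the floor in the control-labelled array alone, Tshb on neither, and Cga went the other way at 1.29 and 2.80. The summed linear signal of the nasal list (7 genes) was 659 in the control-labelled array and 26 in the TET2 KD-labelled array, and that of the pituitary list (7 genes) 3590 and 65.8. Both lists hold genes known beforehand to differ between these arrays, so their direction is no independent evidence. Lists for neurons, blood, astrocytes and oligodendrocytes had median differences of 0.02, -0.06, -0.03 and -0.10. Epcam, an adhesion molecule of epithelia that ES cells express as well, read 5.05 and 2.14, while Cdh1 read 9.63 and 9.87. Krt8 read 3.07 and 1.81 and Krt5 4.06 and 3.57. The summed epithelial list (6 genes) was 1040 and 1130, and without Cdh1, its brightest gene, 249 and 194.

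Lists for cell types that deposit matrix differed less. The summed signal of 11 fibroblast genes was 628 and 625, and without Thy1, which carries most of it, 92.3 and 96.5. That of 10 genes of primitive and parietal endoderm was 806 and 805, and without Sparc 107 and 99.7. For 5 genes of smooth muscle and pericytes it was 98.9 and 95.0. Of 7 chondrocyte and osteoblast genes 6 were above the floor, with differences from -0.64 (Sox9) to 0.49 (Sp7), and their sum was 58.0 and 54.5. Of 8 endothelial genes 2 were above the floor, and their sum was 40.2 and 34.9. Of the endoderm genes Gata6 and Foxa2 were under the floor on both arrays, while Dab2 (-0.53) and Sox17 (-0.55) were lower short of 2-fold. What part other cells had in the differences of Itga6, Lama1, Lamc1 or Col4a6 was not tested.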

How the data were processed

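Values are the authors' deposited log2 signals per probe set on 2 Affymetrix arrays, and the submitters' processing notes name Affymetrix Expression Console. How it summarised, corrected and scaled the probes is not given in the sources used here. That the logs are to base 2 was read from the values, since the highest control KD value, taken as a natural logarithm, would be 95197.5, above the 65535 a 16-bit scanner can record.

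Probe sets with 1 gene symbol in the platform annotation were named (28898 of 45037; 551 had several symbols and 15588 none), and RefSeq tables of GRCm38.p6 gave list names, neighbours and promoters (53 of 72 members matched). Of 264 list entries 237 found a gene. For each gene the brightest probe set by mean was used, its level judged against the median of all values. Differences are TET2 KD minus control KD. Counts take genes with a mean above the floor. Where 1 array was under the floor, the fold is a bound against it. Members, lists and thresholds were chosen with earlier results of these data known. The genes named were members past 2-fold with an array above the floor, the 6 largest differences, 5 brightest and 3 widest probe set ranges per family, all laminins, a preset list, and list genes past 2-fold; others named were chosen after their values were seen. Procedures were tested on simulated data. Python 3.11.15, numpy 2.4.6, pandas 2.3.3 and matplotlib 3.10.9 were used.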

Additional observations from a re-analysis of the deposited data

How the results depend on the processing

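Of 357 comparisons of a result with an alternative, 315 kept their value within the limits set (a count within 1.5 times, a share within its exact binomial interval, a difference within 0.146, the robust SD over all genes, and on its side of 2-fold), 42 moved and 0 differences past 2-fold changed sign. Of 244 differences and medians compared, 14 changed sign, each 0.22 or less in size at first. The largest such changes were Col27a1 from 0.21 to -0.34 and Col18a1 from -0.22 to 0.03 with the mean of all probe sets, and the collagen median from 0.04 to -0.25 with the floor at the 75th percentile. Centring both arrays on one median moved none, but the medians, 2.56 and 2.55, were already close, so it could shift values little. Quantile normalization left 1 collagen in place of 2 whose probe sets agreed in sign. The mean of all probe sets could not change a gene with 1 probe set. Leaving out probe sets marked as shared could not change a gene whose brightest was unmarked. The 315 thus include comparisons that could hardly move. With the floor at the 25th percentile, 81% of collagens, 87.5% of laminins and 86.4% of integrins lay at or above it. There 2 of 19 integrins were lower by 2-fold or more. Probe sets agreed in sign in 6 of 15 collagens and 3 of 4 laminins, against 2 of 6 and 1 of 1 at the main floor. Shares over all genes were not computed for the floors at the 25th and 75th percentiles, nor for the mean of all probe sets. At the 75th percentile, 9.52% of collagens and 18.2% of integrins remained above the floor, 0 collagens were higher and 0 collagens, integrins or genes of the other lists lower, the collagen median was -0.25, and probe sets agreed in 0 members of each family, since few had 2 left. With the mean of all probe sets, 0 of 18 collagens passed 2-fold in either direction and 0 of 8 integrins were lower. With no share over all genes beside them, these counts say nothing particular of the members. At 1.5-fold, 2 of 23 collagens were higher, and 2 of 4 laminins and 2 of 11 integrins lower. Of 99 genes of the other lists 1 was higher and 7 lower. Over all genes 1.78% were higher and 5.42% lower at that threshold. Counting only genes with both arrays above the floor left 0 collagens lower. This last alternative, that without members of equal values, which moved nothing, and those run on the other lists and Tet2 were added after the data were seen. Each group was 1 array, so none could be left out. No paired analysis was possible because the groups have 1 array each. With 2 arrays and no detection calls, a signal near the floor cannot be told from background.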

Other observations

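Promoters of the members met the definition of a CpG-rich promoter about as often as all promoters, but held more CG dinucleotides at the median. Of 59 RefSeq promoters of 53 members, 19 (32.2%) were CpG-rich, beside 31% of all 32851. The median was 10 CG dinucleotides, beside 6 in all promoters, and 47.5% held a GC box, beside 32.7%. The median difference was 0.08 for the 14 members above the floor with such a promoter and 0.06 for the 18 with another. The 6 members above the floor with no entry in the promoter table are left out of both sets, and they include Itga6 (-1.92), Lama1 (-1.03) and Lamc1 (-0.68). The GC box occurred in 58.3% of the 36 collagen promoters, in 20% of 5 laminin promoters and in 33.3% of 18 integrin promoters, beside 32.7% of all.

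Of 8 pairs of members that are neighbours in the genome, 3 had both genes above the floor on both arrays. Col4a1 and Col4a2 were both lower (-0.49 and -0.29), Col4a6 and Col4a5 differed by 1.30 and 0.01, Col3a1 and Col5a2 by 0.12 and -0.01, Itga2 and Itga1 by 0.03 and 0.10, and Col9a1 and Col19a1 by -0.20 and -0.24. In the pairs Col6a2 and Col6a1, Col4a4 and Col4a3, Col9a1 and Col19a1, and Itga2 and Itga1, only 1 gene was above the floor on both arrays, and in Col6a5 and Col6a4 neither was.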
